A study of Parhyale hawaiensis with 42 samples.

Results

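The genes described here are 200 *Parhyale hawaiensis* genes whose polyadenylated RNA peaked at S5–6, relative to every other time-point of embryogenesis. The peak is relative: some members were rare even at S5–6, and some stayed abundant at other time-points. They were chosen from the values themselves. Expected counts, the read numbers estimated per transcript by salmon, were summed over the transcripts of each gene of the Trinity assembly, expressed per 1000000 counts of the library (CPM) and averaged over the 2 libraries of a time-point. A gene met the rule when its S5–6 mean was at least 4 times its mean at S1–4 and at least 4 times its mean at each of the 5 later time-points. Of 31153 genes, 269 met the rule, and the 200 with the highest S5–6 mean are the members. The files do not pair assembly identifiers with gene names, so members are given by identifier, and nothing is said of what they encode.

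All groups were whole wild-type embryos of the amphipod crustacean *P. hawaiensis*, from a laboratory culture, untreated, pooled by stage. mRNA was measured in 14 libraries, 2 for each of 7 time-points: S1–4 and S5–6, then S7–11, the single stages S14 and S17, and last S21–23 with S24–30. In the labels S5–6 appears as stage 6 and S7–11 as stages 8–11, and the names of the study are kept. Both S1–4 libraries carry a molecule label for small RNA, but they hold counts on the same mRNA transcripts as the others. Separate broods are not stated for the 2 libraries of a group, so p-values measure only the spread between replicate libraries, which may be technical. In the tests this spread was estimated over all 7 time-points together, not from the 2 groups compared.

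Early animal embryos run on mRNA that the mother placed in the egg. During the maternal-to-zygotic transition that store is degraded, and the embryo's own genes are switched on. In many animals some stored messages are also given longer poly-A tails before they are translated, which raises their share in a poly-A selected library. S1–4 covers the first cleavages, S5–6 the late cleavage stages before gastrulation, and S7–11 gastrulation and the early germband. A gene that peaks at S5–6 alone therefore peaks in a short window around this transition. New transcription, a longer poly-A tail and a change in the other RNAs that make up the total cannot be told apart in these values, nor can fewer cells of a type and less RNA per cell.

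The libraries held 41354642 to 64892281 counts (median 53153516), so that 3 counts, the most that a library with 0 counts allows at 95% confidence, are 0.0462 to 0.0725 CPM. This limit covers counting error only. In all 7 replicate pairs the counts differed by more than sampling noise, with a chi-squared statistic of 3.58 to 13.0 times its degrees of freedom. The same rule applied to the other time-points found 941 genes for S1–4, 100 for S7–11, 24 for S14, 18 for S17, 65 for S21–23 and 2797 for S24–30. In CPM, a peak confined to S5–6 was thus met by fewer genes than a peak at S1–4 or S24–30. It was met by more than a peak at any of the other 4 time-points. The other time-points were not recounted under another scaling, so this order holds for CPM only. The scaling of the libraries matters for the choice of members. The TMM factors of edgeR, which correct for a few genes taking up many counts, were 1.19 and 1.17 in the S1–4 libraries and 0.863 and 0.854 in those of S5–6. With CPM scaled by TMM, all 200 members still met the rule, but 546 genes did in all, and of the 200 highest of those only 79 are members.

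The members spanned a wide range of levels at S5–6, from a mean of 0.322 to 5317 CPM with a median of 23.6. At S5–6, 66 members reached 100 CPM and 129 reached 10 CPM, whereas 26 lay under 1 CPM. The median member stood at 4.71 CPM at S1–4, 2.42 CPM at S7–11, 0.683 CPM at S14, 0.389 CPM at S17, 0.397 CPM at S21–23 and 0.509 CPM at S24–30. As a percentage of the gene's own S5–6 mean, the median was 17.8% at S1–4, 9.11% at S7–11 and 3.92% at S14, and between 2.24% and 3.02% from S17 on. These values follow from the rule and are a description without a test. What the rule did not fix is their order. S1–4 was the second-highest time-point in 139 members, S7–11 in 27, S24–30 in 6, S14 and S21–23 in 5 each and S17 in 1, and the remaining 17 members had 0 counts in all 12 libraries of the other time-points.

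**Figure D1:**
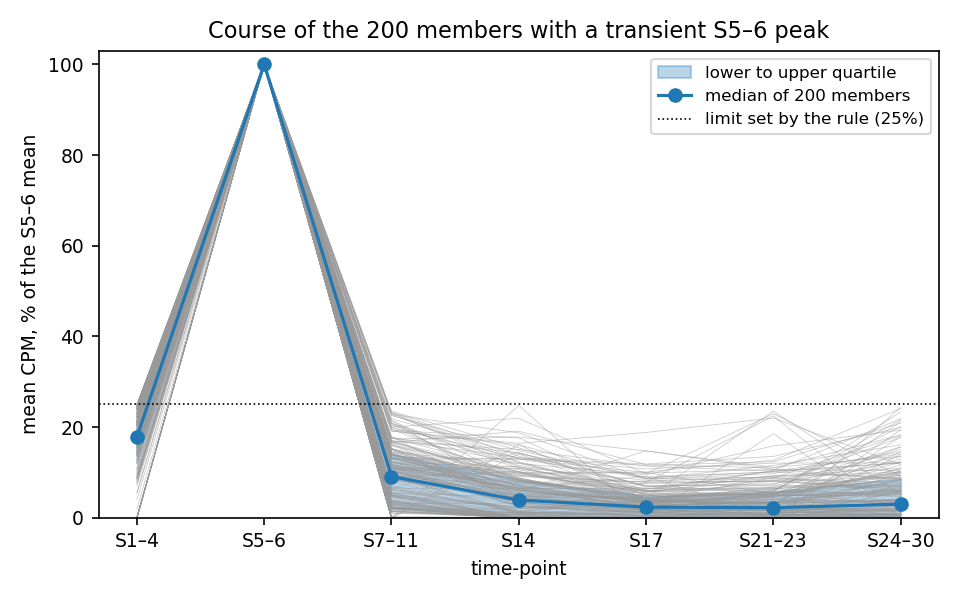
Mean CPM at each time-point as a percentage of the gene's own S5–6 mean, for the 200 members (grey lines), with their median (blue line and points) and lower to upper quartile (blue band). The median is 17.8% at S1–4 and 9.11% at S7–11 and lies under 4% from S14 on, and the dotted line marks the 25% that the rule allowed.

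Together the members took up 4.18% of all counts at S5–6, against 0.840% at S1–4 and 0.428% at S7–11, and between 0.143% and 0.204% from S14 on. The 4 most abundant members made up 32.3% of the members' CPM at S5–6. On the scale of TPM, in which the values of a library are corrected for transcript length, 5 members were among the 100 most abundant of all genes at S5–6.

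TRINITY_GG_147263_c0_g1 was the member of highest S5–6 level in CPM, with 5296 and 5339 CPM in the 2 libraries. It stood at 1150 and 1158 CPM at S1–4 and at 480.4 and 502.8 CPM at S7–11, and later at 39.8 to 84.7 CPM. The level before the peak was therefore higher than any level after it. All its counts were assigned to a transcript of 8946 bases, and by TPM it ranked only 151 among all genes at S5–6. TRINITY_GG_100991_c0_g1 had nearly the same CPM at S5–6, 4971 and 4916, on a transcript of 1717 bases, and by TPM (4983) it ranked 11. Its S1–4 libraries held 1209 and 1186 CPM and its S7–11 libraries 120.4 and 122.9 CPM, and its lowest level was 8.22 and 8.31 CPM, at S17.

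TRINITY_GG_56833_c0_g1 was at 185.4 and 186.8 CPM at S1–4, 1691 and 1680 CPM at S5–6 and 91.1 and 90.7 CPM at S7–11. At S14 it was at 0.786 and 0.799 CPM and it stayed under 1 CPM in every later library, a course that left almost nothing of the peak. TRINITY_GG_107587_c0_g1 followed another course after the same kind of peak. It held 182.7 and 197.6 CPM at S1–4, 1529 and 1577 CPM at S5–6, 201.3 and 202.2 CPM at S7–11 and 86.5 to 133.0 CPM in the 8 later libraries. In each of these 4 members the S5–6 libraries lay above all 12 others, which the rule nearly ensures.

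**Figure D2:**
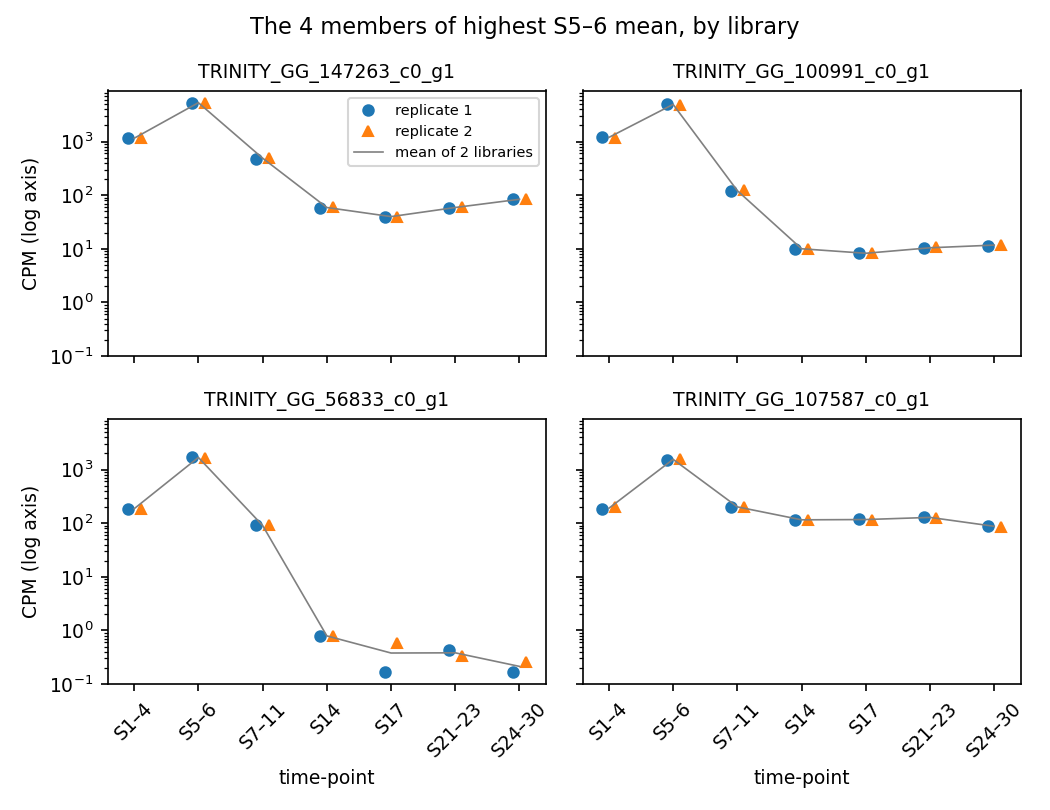
CPM in each of the 14 libraries (log axis) of the 4 members with the highest S5–6 mean, with the mean of the 2 libraries as a line. All 4 peak at S5–6, TRINITY_GG_56833_c0_g1 stays under 1 CPM from S14 on, and TRINITY_GG_107587_c0_g1 remains at 86.5 to 133.0 CPM.

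The height of the peak over the next-highest time-point could be computed for the 183 members with counts elsewhere. Its median was 5.06, 90 members lay between 4 and 5, and 7 reached 10 or more, so many members sat close to the limit of the rule. Just inside it were TRINITY_GG_12451_c0_g1 at a ratio of 4.008, with S5–6 libraries of 0.871 and 0.495 CPM, and TRINITY_GG_73708_c0_g1 at 4.010, with 11.0 and 10.7 CPM. Just outside were TRINITY_GG_133132_c0_g1 at 3.997 and TRINITY_GG_26768_c0_g1 at 3.994. Of the members that had at least 1 CPM at their next-highest time-point, the sharpest peaks were those of TRINITY_GG_118969_c5_g1 and TRINITY_GG_140384_c0_g1, at ratios of 12.1 and 11.3. TRINITY_GG_118969_c5_g1 went from 12.7 and 12.8 CPM at S1–4 to 154.8 and 153.5 CPM at S5–6 and 7.69 and 7.45 CPM at S7–11. TRINITY_GG_140384_c0_g1 was less even, with 1.76 and 0.471 CPM at S1–4 and 10.6 and 14.6 CPM at S5–6. The largest ratio among the members of at least 10 CPM at S5–6, chosen after its values were seen, was that of TRINITY_GG_61917_c1_g1. It held 0.904 and 0.737 CPM at S1–4, 42.5 and 43.1 CPM at S5–6 and 1.01 and 0.972 CPM at S7–11, a ratio of 43.1 to the next-highest time-point.

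Whether a member had reads at S1–4 went with its level at S5–6. Of the 200 members, 175 had more than 3 reads in at least 1 S1–4 library, and these had a median S5–6 level of 42.8 CPM. The other 25 had 3 reads or fewer in both, and their median S5–6 level was 0.691 CPM with a highest value of 4.19 CPM. All 129 members of at least 10 CPM at S5–6 were above this limit at S1–4. Their median S1–4 level was 19.3% of the peak, the lowest was 1.92%, and in 102 of them it lay between 15% and 25%, the latter being the highest share the rule allowed. No member of at least 10 CPM at S5–6 was therefore without reads at S1–4. At S1–4 the limit of 3 reads is 0.0632 to 0.0646 CPM. In the weakest of the 25, at 0.322 CPM at S5–6, this exceeds a level like the median 17.8% of the peak. In the highest, at 4.19 CPM, such a level would have been well above the limit.

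Those weak members were also the ones with the least replicate agreement. In 14 members 1 of the 2 S5–6 libraries had 3 reads or fewer, and 13 of these 14 were among the 25 with 3 reads or fewer in both S1–4 libraries. Their S5–6 means were 0.335 to 2.18 CPM, and the library with reads was replicate 1 in 10 of the 14. Of the 17 members with 0 counts in all other libraries, 11 had more than 3 reads in only 1 S5–6 library. The 12 members that were at this limit at S1–4 and had reads in both S5–6 libraries had S5–6 means of 0.322 to 4.19 CPM. The highest of them, TRINITY_GG_142049_c2_g1, had 1.44 and 6.93 CPM at S5–6 and 0 in the other 12 libraries. A steadier example is TRINITY_GG_69457_c0_g1, with 1.71 and 1.95 CPM at S5–6 and also 0 in the other 12 libraries. Both were chosen after their values were seen.

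Over all 200 members the log2 ratio of replicate 2 to replicate 1 at S5–6, after 0.1 CPM was added, had a median of -0.01. It was over 2-fold in 20 members (10%), against 5.42% of the 29223 genes tested. Among the 129 members of at least 10 CPM it was over 2-fold in 0, as in 0 of the 8061 tested genes at this level. Both S5–6 libraries lay above all 12 others in 186 of the 200 members and in 129 of these 129. They did so by a factor of at least 4, library against library, in 152 of 200 and 111 of 129. The rule set the S5–6 mean at least 4 times above every other mean. These counts of separate libraries thus follow largely from the choice of members and are no further support for the peak. They were not made over all genes.

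**Figure D3:**
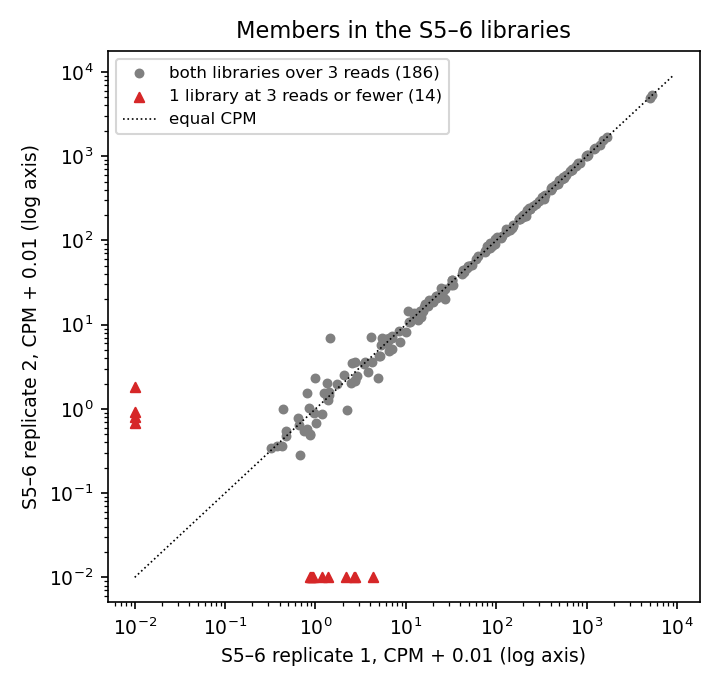
CPM + 0.01 of the 200 members in the 2 S5–6 libraries (log axes). The 14 members with 3 reads or fewer in 1 library (red triangles) all have S5–6 means of 2.18 CPM or less, whereas the members of at least 10 CPM lie near the line of equal values.

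Contrasts with S5–6 chose the members and were not tested. Tests were run between other time-points, over 29223 genes, by the quasi-likelihood method of edgeR with Benjamini-Hochberg adjustment. A call needed an adjusted p of at most 0.001 together with a log2 fold change of 1.5 or more in either direction. The SE given with a log2 fold change is its size divided by the square root of the test's F statistic. The rule also held the levels at these other time-points to 25% of the S5–6 mean, so the tests are not independent of the choice, and shares of members beside those of all genes describe the members only. All 200 members passed the filter for testing, a mean of at least 10 normalized counts at 1 time-point, but 36 passed it through S5–6 alone and could hardly be called between other time-points. At 1 or both time-points of a comparison, 160 members reached 10 normalized counts for S7–11 and S1–4, 145 for S14 and S7–11, 124 for S24–30 and S21–23 and 161 for S24–30 and S1–4. Shares of the 200 are therefore given beside those of the 129 members of at least 10 CPM at S5–6.

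The first question was whether the level after the peak differed from that before it. At S7–11 compared with S1–4, 34 members were lower (17.0%, against 21.8% of all genes tested), 1 was higher (0.5%, against 23.6%) and 165 were not called. Among the 129 members of at least 10 CPM, 27 were lower (20.9%, against 32.8% of all tested genes at this level) and 1 was higher (0.775%, against 11.9%). The share of members that fell was thus near or under the background. The median log2 fold change of the members was -0.53, that of all genes was 0, and it was -0.60 over the 175 members with more than 3 reads in at least 1 of the 4 libraries, with genes at 0 in 1 group set to their bound. The scale enters here: with libraries scaled to their total counts the median of all genes moved by -0.17 and that of the members was -0.83.

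TRINITY_GG_100991_c0_g1 fell by 2.99 on the log2 scale (SE 0.03, adjusted p = 3.13e-17) between S1–4 and S7–11. TRINITY_GG_147263_c0_g1 had a log2 fold change of -0.93 (SE 0.03, adjusted p = 1.82e-12), too small to be called. Of the members called lower, the 2 with the largest fitted change had 0 counts in both S7–11 libraries, where the fitted value is no measure of size and 3 counts per library set a limit. TRINITY_GG_49010_c1_g1, at 5.23 and 6.01 CPM at S1–4, was at least 86.4-fold lower at S7–11. TRINITY_GG_46494_c0_g1, at 2.11 and 0.992 CPM at S1–4, was at least 23.8-fold lower. In an edgeR fit of single transcripts in place of gene sums, TRINITY_GG_46494_c0_g1 was not called (adjusted p = 0.00405). The 1 member called higher was TRINITY_GG_3361_c0_g1, from 2.95 and 1.31 CPM to 5.36 and 4.86 CPM, with 25.2 and 23.8 CPM at S5–6 in between. Under a looser limit, calls were more frequent in both directions. With an adjusted p of 0.05 and no minimum fold, 29 members were higher and 88 were lower. Over all genes tested, 11878 were higher and 11497 lower under this limit. The log2 fold change of TRINITY_GG_3361_c0_g1 was 1.57 (SE 0.26, adjusted p = 7.03e-05). Its S1–4 libraries differed by more than those of S7–11, and without S1–4 replicate 2 the log2 fold change was 1.14 and the call was lost, as it was with total-count scaling and with DESeq2.

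**Figure D4:**
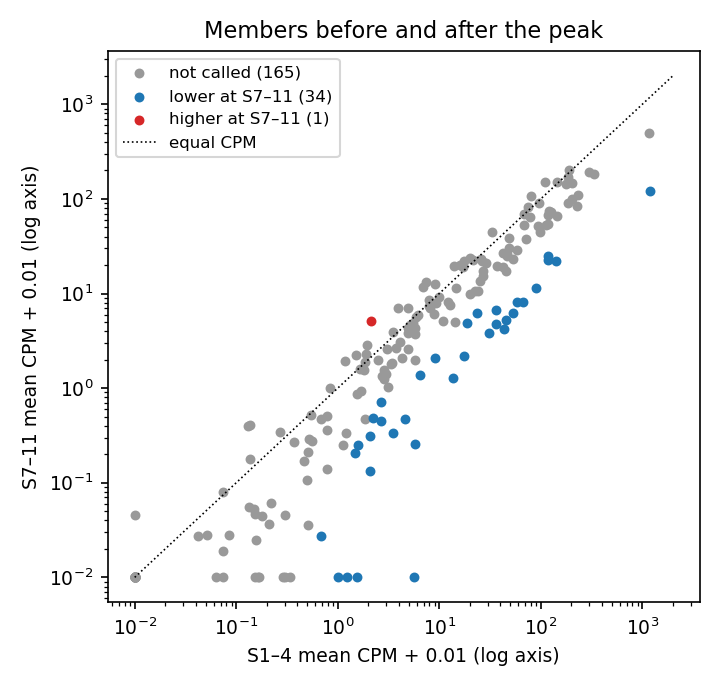
Mean CPM + 0.01 of the 200 members at S1–4 (x axis) and S7–11 (y axis), on log axes, by the call of edgeR's quasi-likelihood test. The 34 members called lower lie below the line of equal values and 1 member lies above it as called higher. The 165 not called include the 25 with 3 reads or fewer in all 4 libraries.

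The next comparison followed the members from S7–11 into the germband. At S14 compared with S7–11, 41 members were lower (20.5%, against 3.69% of all genes tested) and 0 were higher (against 3.32%). At an adjusted p of 0.05 with no minimum fold, the edgeR test had 124 of 200 members lower and 1 higher. Of all 29223 genes tested, 8248 were lower and 3562 higher under this limit. DESeq2 called 38 members lower and 0 higher, against 925 and 1307 of all genes. Among the members of at least 10 CPM, 39 of 129 were lower (30.2%, against 9.47% of tested genes at this level) and 0 were higher (against 0.955%). The median log2 fold change was -1.01 in the members and -0.20 in all genes, and -1.12 over the 161 members with more than 3 reads in at least 1 of the 4 libraries, with genes at 0 in 1 group at their bound. The rule admits no gene that is high at S14, so nothing is read from the difference to all genes.

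The 3 most abundant members all fell here. TRINITY_GG_147263_c0_g1 went from 480.4 and 502.8 CPM at S7–11 to 58.3 and 59.8 CPM at S14, a log2 fold change of -3.15 (SE 0.04, adjusted p = 2.10e-16). TRINITY_GG_100991_c0_g1 fell by 3.69 on the log2 scale (SE 0.04, adjusted p = 1.77e-16) and TRINITY_GG_56833_c0_g1 by 6.93 (SE 0.14, adjusted p = 4.44e-14). TRINITY_GG_107587_c0_g1, the most abundant of those that kept a level late, had a log2 fold change of -0.89 (SE 0.06, adjusted p = 1.27e-08), too small to be called.

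A subset of members was left without reads. From S14 to S24–30, 49 members had 3 reads or fewer in each of the 8 libraries. Of these, 21 were at this limit at every time-point but S5–6, and 28 had been above it at S1–4. The 13 of the 49 that reached 10 CPM at S5–6 are the clearest, and they were set apart here after their values were seen. They had S5–6 means of 16.0 to 687.1 CPM, held 10.7% to 23.8% of the peak at S1–4 and no more than 3.39% at S7–11. TRINITY_GG_12979_c0_g1, the most abundant of them, was at 134.5 and 145.1 CPM at S1–4, 688.7 and 685.6 CPM at S5–6 and 22.7 and 21.0 CPM at S7–11. In the 8 later libraries it was at 0.036 CPM or less. TRINITY_GG_145637_c1_g1 went from 57.0 and 49.8 CPM at S1–4 through 333.7 and 311.8 CPM to 6.30 and 6.14 CPM at S7–11 and 0 in all 8 later libraries. TRINITY_GG_49064_c0_g1 had 35.4 and 37.6 CPM at S1–4, 203.8 and 198.3 CPM at S5–6 and 4.47 and 4.96 CPM at S7–11, and also 0 in all later ones. Compared with its S7–11 level, each of the latter was far lower at S14, TRINITY_GG_145637_c1_g1 at least 132-fold and TRINITY_GG_49064_c0_g1 at least 100.03-fold, by the 3-count limit per library.

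The transcripts of these 13 members were short. Their leading transcript, the one with most counts at S5–6, was 248 to 1302 bases long with a median of 515, whereas the median over all 129 members of at least 10 CPM was 2141 bases. The opposite course was found in 34 members of at least 10 CPM that stayed at 5% of their peak or more at every time-point, TRINITY_GG_107587_c0_g1 being the most abundant. Their leading transcripts had a median of 2844 bases and the shortest had 387. These groups were formed on their values, and their lengths were not tested against each other. The limit of 3 reads was not adjusted for length, and long members of nearly the same course fell outside it. TRINITY_GG_26482_c0_g1 (3575 bases) had 417.5 and 426.3 CPM at S5–6 and at most 0.0749 CPM in any library from S14 on. TRINITY_GG_22558_c0_g1 (4161 bases) had 346.5 and 346.0 CPM at S5–6 and later at most 0.123 CPM.

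The last interval was compared in the same way. At S24–30 compared with S21–23, 7 members were higher (3.50%, against 11.3% of all genes tested) and 3 were lower (1.5%, against 4.79%). Among members of at least 10 CPM, 5 were higher (3.88%, against 6.69% at this level) and 3 were lower (2.33%, against 5.07%). With an adjusted p of 0.05 and no minimum fold, 49 of the 200 were higher and 28 lower, against 8680 and 6320 of all genes tested. The median log2 fold change of the members was 0 and that of all genes 0.12, and scaling to total counts raised the latter to 0.35. Over the 144 members with more than 3 reads in at least 1 of the 4 libraries, with genes at 0 in 1 group at their bound, the median was 0.08.

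The 7 and 3 are named here in part after their values were seen. TRINITY_GG_3639_c0_g1 had its peak at 484.8 and 481.8 CPM and fell to 12.2 and 13.4 CPM at S21–23, then rose to 102.6 and 102.5 CPM at S24–30. That is a log2 fold change of 2.76 (SE 0.06, adjusted p = 2.02e-14), and the last level was close to the 114.8 and 123.2 CPM of S1–4. TRINITY_GG_53352_c0_g1 rose from 25.1 and 26.0 CPM to 104.2 and 103.8 CPM, by 1.79 on the log2 scale (SE 0.05, adjusted p = 7.36e-13), and had been at 93.8 and 95.8 CPM at S1–4. TRINITY_GG_37601_c0_g1 rose from 8.67 and 9.48 CPM to 35.5 and 43.7 CPM, by 1.89 (SE 0.10, adjusted p = 8.59e-10). These 3 genes thus had a second and lower maximum at the end of embryogenesis. TRINITY_GG_146222_c0_g1 rose from 1.29 and 1.495 CPM to 4.66 and 5.51 CPM, by 1.63 (SE 0.19, adjusted p = 3.99e-06). TRINITY_GG_114630_c0_g1 had 0 counts in both S21–23 libraries and 1.61 and 1.11 CPM at S24–30, at least 18.8-fold higher by the 3-count limit. TRINITY_GG_99691_c0_g1 and TRINITY_GG_124770_c1_g1, also at 0 at S21–23, were at least 9.65-fold and 4.72-fold higher.

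Of the 3 members that fell at the end, 2 had declined over the preceding time-points. TRINITY_GG_86740_c0_g2 had 530.9 and 532.5 CPM at S5–6, 74.8 and 75.5 CPM at S7–11, 37.7 and 37.8 CPM at S14, 10.7 and 8.92 CPM at S17, 3.95 and 3.03 CPM at S21–23 and 0.661 and 0.545 CPM at S24–30. Each time-point after S5–6 was lower than the one before, with no overlap of libraries, and the last step was a log2 fold change of -2.78 (SE 0.18, adjusted p = 5.91e-09). TRINITY_GG_44043_c0_g2 had a similar course at a lower level, from 78.4 and 86.3 CPM at S5–6 to 0.110 and 0.161 CPM at S24–30, with a last step of -2.27 (SE 0.39, adjusted p = 0.000157). TRINITY_GG_61917_c1_g1, at 0.385 and 0.599 CPM at S14 and 0.491 and 0.858 CPM at S17, had no such decline, and fell from 0.731 and 0.803 CPM to 0.128 and 0.242 CPM, by 2.29 on the log2 scale (SE 0.35, adjusted p = 6.66e-05).

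Compared over the whole of embryogenesis, the members were mostly at or below the level of the first stages at the end. At S24–30 compared with S1–4, 86 members were lower (43.0%, against 26.2% of all genes tested) and 0 were higher (against 29.1%). At an adjusted p of 0.05 with no minimum fold, the edgeR test had 143 of 200 members lower and 3 higher. Of all 29223 genes tested, 12001 were lower and 13388 higher under this limit. DESeq2 called 75 members lower and 0 higher, against 6776 and 9288 of all genes. Among the members of at least 10 CPM, 74 of 129 were lower (57.4%, against 46.8% of tested genes at this level) and 0 were higher (against 9.14%). The rule admits no gene that is high at S24–30, so nothing is read from the difference to all genes here either. The median log2 fold change was -1.62 in the members and 0.23 in all genes, and -1.74 over the 175 members with more than 3 reads in at least 1 of the 4 libraries, with genes at 0 in 1 group at their bound. The comparison shares its S1–4 libraries with that of S7–11 and its S24–30 libraries with that of S21–23, so the counts are not independent of each other.

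TRINITY_GG_100991_c0_g1 was lower at S24–30 than at S1–4 by a log2 fold change of -6.66 (SE 0.04, adjusted p = 1.23e-19) and TRINITY_GG_147263_c0_g1 by -3.76 (SE 0.04, adjusted p = 2.48e-18). TRINITY_GG_12979_c0_g1, at 0 counts in both S24–30 libraries, was at least 2396-fold lower by the 3-count limit. TRINITY_GG_53352_c0_g1 had a log2 fold change of 0.15 (SE 0.05, adjusted p = 0.0115) and was not called.

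In 62 members the assembly held 2 or more transcripts, so it could be asked whether the transcript that led at S5–6 also led at other time-points. Only genes with at least 20 reads at the time-point were read. The leading transcript was the same at S5–6 and S1–4 in 57 of 61 members (93.4%, against 83.6% of 8667 genes) and the same at S5–6 and S7–11 in 53 of 60 (88.3%, against 75.5% of 8145 genes). Levels were not matched in this comparison. Of the members under 10 CPM, 94.4% had a single transcript, so those read were mostly abundant, and nothing is read from the difference. In TRINITY_GG_100991_c0_g1 a transcript of 1717 bases held 76.4% and 73.3% of the gene's counts at S1–4 and 75.2% and 73.8% at S5–6. The other, of 1300 bases, held nearly all the rest, so that the shares were alike while the gene sum changed 4.13-fold. At S7–11 the replicates differed, with 70.1% and 100% on the transcript of 1717 bases.

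The leading transcript differed from that of S5–6 in 4 members at S1–4 and in 7 at S7–11. Of the latter, 4 are named here after their values were seen. In TRINITY_GG_26664_c0_g1 a transcript of 3570 bases held 56.7% of the counts at S5–6 and 0% at S7–11, where one of 5684 bases led. In TRINITY_GG_3235_c0_g1 a transcript of 4113 bases held 66.3% at S5–6 and 0% at S7–11, where one of 6510 bases led. In TRINITY_GG_104016_c0_g1, with 10 transcripts, the leading one of 13155 bases went from 64.2% to 13.8% and was replaced by one of 13253 bases. TRINITY_GG_114630_c0_g1 went from 89.9% on a transcript of 2137 bases to 14.9%, with one of 2044 bases then in the lead. The gene sums of TRINITY_GG_26664_c0_g1, 181.2 and 186.9 CPM at S1–4 and 169.7 and 171.7 CPM at S7–11, hide this change of transcript. Salmon divides reads that fit several transcripts by estimation, so shares between overlapping transcripts are less certain than gene sums.

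The leading transcripts of the 200 members were 248 to 13155 bases long, with a median of 1143. The median over all genes tested was 935 bases, over the 200 highest genes that met the same rule for S1–4 it was 1910.5, and over the 100 that met it for S7–11 it was 784.5. Length went with level: the members of at least 10 CPM had a median of 2141 bases and the 71 below it 496, and across the 200 members Spearman's rho between S5–6 mean CPM and length was 0.762. CPM is not corrected for length, and genes are not independent replicates, so this is a description. The 8061 tested genes of at least 10 CPM had a median of 2905 bases, against 2141 in the members of at least 10 CPM, with levels above that minimum not matched and no test of the difference. A single assembled transcript was found in 69.0% of the members and 64.8% of the genes tested. Among those of at least 10 CPM the shares were 55.0% and 44.9%.

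**Figure D5:**
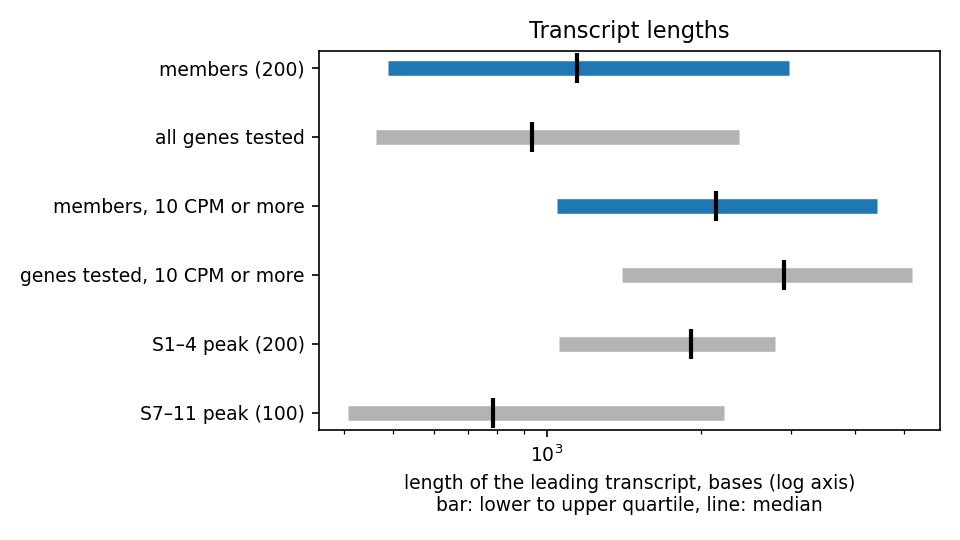
Length of the leading transcript (log axis, bases) for the members, the members of at least 10 CPM at S5–6, the tested genes and the genes that met the same rule for S1–4 or S7–11, with bars from the lower to the upper quartile and a line at the median. The members' median of 1143 bases lies between the 1910.5 of the S1–4 peak and the 784.5 of the S7–11 peak, and at 10 CPM or more the medians are 2141 bases in the members and 2905 in the tested genes.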

How the data were processed

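The authors assembled mRNA reads, mapped to the genome with STAR (version 2.7.2b), with Trinity, and quantified poly-A selected, stranded libraries on the transcripts with salmon (version 0.14.1). The deposited values are expected counts, not normalized, and TPM, which the authors' salmon run scaled by effective length. The 28 small RNA libraries were not used here. Expected counts were summed per Trinity gene and rounded for tests. Ranks by TPM are on TPM summed per gene. Members and lists were chosen with earlier results of these data known.

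Genes with a mean of at least 10 counts, normalized by DESeq2 (version 1.42.0) size factors, at 1 or more time-points were tested in 1 model of 7 groups with edgeR (version 4.0.16), TMM scaling and the quasi-likelihood test. On simulated data for S7–11 against S1–4 with 29223 genes, the test recovered 97 of 100 genes changed by 2 on the log2 scale and 100 of 100 changed by 3, with 0 false calls. The 200 changed genes all had a mean over 1 CPM, and as many rose as fell. All other genes kept the same mean at every time-point. The simulated spread followed the trend with level, so genes of equal level did not differ in spread as real genes may. The data had 6890 genes called higher and 6374 lower, so these rates need not hold there, nor for members near 3 reads. Named genes are the 4 of highest S5–6 mean, those of largest called change at S7–11 compared with S1–4 (up to 2 a direction), 2 on each side of the rule's limit, the 2 most abundant with several transcripts and the 2 of largest ratio with at least 1 CPM at the next time-point. Others are said to be chosen after their values were seen. Alternatives were another test, scaling, filter, threshold and transcript level, a replicate block and leaving out each library. R (version 4.3.3) and Python (version 3.11.15) were used.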

Additional observations from a re-analysis of the deposited data

How the results depend on the processing

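The number of genes that met the rule was 269. It was 546 with TMM scaling, 494 from TPM, 547 at 3 times, 134 at 6 times, 146 when the lowest S5–6 library was set against the highest other library and 174 with at least 1 CPM at S5–6, and from 237 to 322 without 1 library. All 200 members were kept under TMM, TPM and 3 times, 69 at 6 times and 141 library against library. At an adjusted p of 0.05 with no minimum fold, members called higher and lower were 29 and 88 at S7–11 compared with S1–4, 1 and 124 at S14 compared with S7–11, 49 and 28 at S24–30 compared with S21–23, and 3 and 143 at S24–30 compared with S1–4. Over all genes tested the calls were 11878 and 11497, 3562 and 8248, 8680 and 6320, and 13388 and 12001. In a fit of all transcripts that passed the filter, each member was also read by its most abundant transcript at S5–6. Members called higher and lower were then 0 and 15, 0 and 21, 2 and 2, and 0 and 58. Over all transcripts tested the calls were 5600 and 3868, 548 and 367, 952 and 1065, and 6595 and 5352. The 1 member called higher at S7–11 compared with S1–4 was 0 with total counts and with DESeq2, as in the fit of transcripts. Without 1 library, members lower at S24–30 compared with S21–23 were 1 (without S24–30 replicate 1) to 5 (without S21–23 replicate 2), against 3, and members higher at S24–30 compared with S1–4 were 0 to 1, the latter without S1–4 replicate 2. The median length was 610 bases over all 269 genes instead of 1143. The causes were not tested.

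Same-numbered replicates deviated together in only 1 of 21 pairs of time-points (correlations of -0.01 to 0.27), so the numbers were not taken to pair the libraries. With the replicate block the calls were 1 higher and 34 lower, 0 and 41, 6 and 3, and 0 and 85 in the same order of comparisons. Over all genes tested they were 6634 and 6166, 941 and 1029, 3138 and 1372, and 8125 and 7491. The 129 members of at least 10 CPM, an alternative added after the data were seen, kept each direction. Members near 3 reads limit what can be read: 25 to 56 of the 200 were at or under that count in all 4 libraries of a comparison.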
